A study of Mus musculus with 4 samples.

Results

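Bone morphogenetic proteins (BMPs) are secreted ligands that bind paired type I and type II receptor kinases at the cell surface, and the activated receptors pass the signal to SMAD1, SMAD5 and SMAD9, which enter the nucleus with SMAD4. In the embryonic heart, BMP2 made by the muscle of the atrioventricular canal is known for inducing Tbx2 in that muscle and for starting the formation of cushion mesenchyme from the overlying endocardium, while BMP10 is known for sustaining the growth of ventricular muscle. SMAD6 and SMAD7 are inhibitors that the pathway itself induces, and the Id and Msx genes are among its common targets.

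Here 10 BMP genes of the 32285 genes counted are described in E10.5 mouse hearts. They comprise 6 ligand genes (Bmp2, Bmp4, Bmp5, Bmp6, Bmp7 and Bmp10), 3 receptor genes (Bmpr1a and Bmpr1b for type I receptors and Bmpr2 for the type II receptor) and Smad6. The set was chosen by its measured level of Bmp2, which was higher in both mutant libraries than in both wild-type libraries in cardiomyocytes, and the other genes were added as its family and receptors. For that reason every comparison of the genotypes within cardiomyocytes is given as a description, and where such a fit made calls they are counted but nothing is read from them.

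The study made droplet-based 3′ single-cell RNA-seq libraries from dissected hearts of C57BL/6J embryos, 2 from wild-type (Wt1 and Wt2) and 2 from homozygous Cyp51 I383V/I383V embryos (Ho1 and Ho2), in which CRISPR/Cas9 had introduced a point mutation into the gene for the sterol 14-demethylase of cholesterol synthesis. The mutation is carried by every cell of the embryo, so it is not specific to heart muscle. The libraries held 109893733 (Wt1), 117034633 (Wt2), 127018819 (Ho1) and 107377100 (Ho2) unique molecular identifiers (UMIs, each standing for 1 captured RNA molecule), and 8908, 7154, 6980 and 6126 cells were used. Nothing in the labels says how many embryos entered a library or whether the libraries of a genotype came from separate litters, so p-values measure the spread between these libraries, which may be technical.

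Cells were sorted into gates by single marker genes and the UMIs of each gate were summed per library. A level is given as CPM, the UMIs of a gene scaled to a total of 1000000 UMIs in its gate, and since 3′ counts were not scaled by length, levels are compared between gates and libraries and not between genes. Cardiomyocytes were cells with at least 7.5 Tnnt2 UMIs per 10000 and numbered 1743 (Wt1), 2666 (Wt2), 3445 (Ho1) and 2454 (Ho2). They were split by the first of Shox2 (sinus venosus), Tbx2 (atrioventricular canal), Stard10 (atrium) and Myl2 (ventricle) to reach its minimum, and the remainder is called other cardiomyocytes. The other gates were Cdh5 (endothelium and endocardium), Hapln1 (cushion mesenchyme), Upk3b (epicardium), Crabp1 (pharyngeal mesenchyme) and Epcam (epithelium). None of the 10 genes was used for gating, though Tbx2, which BMP2 is known for inducing, was. Cyp51 itself was at 68.3, 65.1, 62.0 and 72.0 CPM in cardiomyocytes of Wt1, Wt2, Ho1 and Ho2, and since the mutation alters the protein sequence this level checks no label.

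The gates held the genes that their names call for to differing degrees. The summed level of 8 endothelial markers was 1796 to 2077 CPM in the Cdh5 gate against 52.9 to 59.9 in all cardiomyocytes, with Egfl7 as the most abundant. In the Hapln1 gate those 8 markers summed to 422 to 532.5 CPM, beside 2961 to 3205 CPM of 7 cushion markers, among them Hapln1. In the Crabp1 gate the 7 cushion markers summed to 812.5, 1048, 1947 and 907 CPM in Wt1, Wt2, Ho1 and Ho2. The 5 pharyngeal markers summed there to 1404, 903.5, 812 and 896 CPM, the higher list in Wt1 only. The Tbx2 gate was not uniform either. Its 5 atrioventricular canal markers, with Rspo3 as the most abundant, summed to 369 (Wt1), 318 (Wt2), 500 (Ho1) and 506 CPM (Ho2) against 62.3 to 111 in the Myl2 gate, while Cacna1g, also on the list, was at 0 in Wt1 and at most 0.874 CPM elsewhere. The list includes Tbx2, which set the gate and so stood at 65.2 to 80.3 CPM in it against 0 in the Myl2 gate. Tbx2-gated cells also carried Myl2 at 2622 to 3107 CPM and 4 outflow tract markers, among them Wnt11 and Isl1, which summed to 140, 124, 79.8 and 125 CPM. The gate is therefore called by its rule, Tbx2-gated cardiomyocytes.

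The libraries also differed in ways that the genotype does not name. Ho1 held 32234 UMIs of Xist and 0 of the Y-linked Ddx3y, where the other libraries held 2 to 5 of Xist and 2935 to 3388 of Ddx3y. Ho1 had 0 Epcam-gated and 25 Crabp1-gated cells, whereas Wt1 had 395 and 1853. In Shox2-gated cardiomyocytes 4 blood genes, led by Hba-x, summed to 556 CPM in Ho1 against 1.95 to 5.94 in the other libraries. Wt1 was the shallowest library, with a median of 10584.5 UMIs per cell against 14219 to 15821.5 in the others, and pairs of libraries shared 14 to 34 cell barcodes.

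Bmp2, a ligand gene at chr2:133552159-133562885 on the forward strand of GRCm38, was counted at 425 UMIs (20.4 CPM) in all cardiomyocytes of Wt1, 814 (19.1 CPM) in Wt2, 1713 (29.4 CPM) in Ho1 and 1657 (38.8 CPM) in Ho2. The Ho libraries were the higher pair, at 34.1 ± 6.63 CPM (SD, n = 2) against 19.8 ± 0.893 CPM (SD, n = 2). The fitted log2 fold change of Ho over Wt was 0.78 ± 0.12 (SE), or 0.92 without Ho1 and 0.63 without Ho2. In that fit 0.0% of 14684 genes were called by edgeR, with 928 at an unadjusted p under 0.05, and DESeq2 called 21.

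The difference between the genotypes was wide in Tbx2-gated cells. Bmp2 stood in these cells at 45.6 (Wt1), 43.2 (Wt2), 92.1 (Ho1) and 112 CPM (Ho2), from 104, 247, 782 and 777 UMIs. The groups were well apart, with means of 44.4 ± 1.73 (Wt) and 102 ± 14.1 CPM (Ho; SD, n = 2 each) and a log2 fold change of 1.18 ± 0.13 (SE). Leaving out any 1 library moved that log2 fold change between 1.08 and 1.28. Of 9 BMP genes tested in this fit 1 was called, Bmp2, where 0.302% of all 11586 genes were. Nothing is read from that call, since the same contrast chose the gene.

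**Figure D1:**
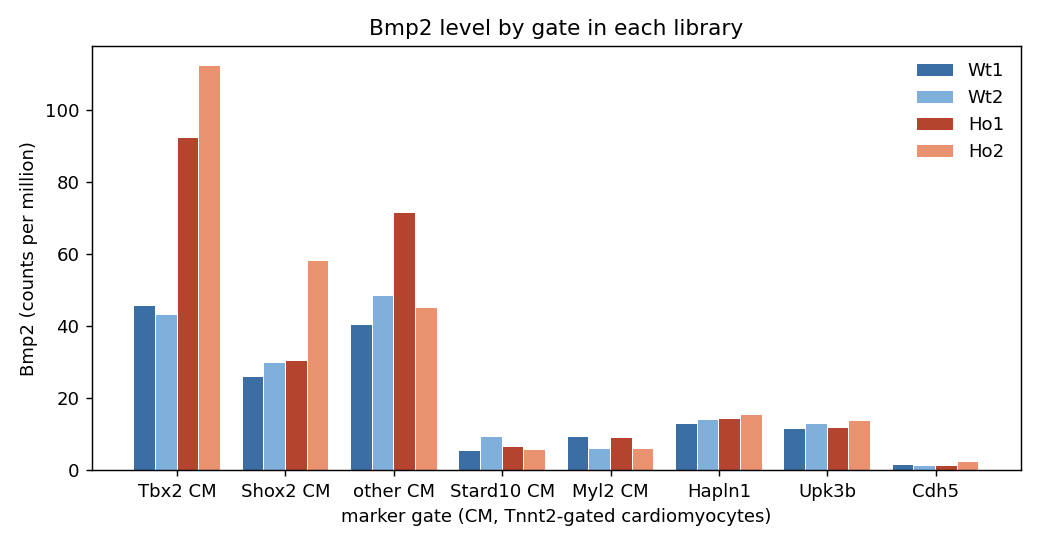
Level of Bmp2 in CPM (vertical axis) in 8 marker gates (horizontal axis), with 1 bar for each library, blue for Wt and red for Ho. The 2 Ho bars stand above the 2 Wt bars in the Tbx2 gate (92.1 and 112 against 45.6 and 43.2), whereas in the Myl2 and Stard10 gates all bars lie under 10 and overlap between the genotypes.

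In chamber muscle the genotypes overlapped with these gates, though not under every way of calling them. In Myl2-gated cells Bmp2 was at 9.14, 6.00, 8.90 and 5.91 CPM in Wt1, Wt2, Ho1 and Ho2, and the genotypes overlapped. Stard10-gated cells held 5.38, 9.30, 6.48 and 5.67 CPM, again overlapping. The fitted log2 fold changes there were 0.07 ± 0.23 and -0.33 ± 0.25 (SE), in fits that called 0.078% and 0.0782% of genes. When gates were called on cells thinned to 5000 UMIs, where fewer cells reached the Tbx2 minimum, they became 0.78 and 0.89. Both Ho libraries then stood above both Wt libraries in Myl2-gated cells (14.8 and 17.4 against 12.4 and 7.25 CPM) and in Stard10-gated cells (16.7 and 19.1 against 8.85 and 10.3 CPM). With 1 UMI more required for Tbx2 and Shox2, the Myl2 gate separated too (14.4 and 15.0 against 8.86 and 7.31 CPM), whereas the Stard10 gate overlapped.

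The Shox2 gate divided the mutant libraries. Its Bmp2 level was 25.8 (Wt1), 29.7 (Wt2), 30.3 (Ho1) and 58.0 CPM (Ho2), so that Ho2 stood alone and Ho1 sat beside the Wt libraries. The log2 fold change was 0.67 ± 0.24 (SE), in a fit that called 0.026% of genes, and it was 0.14 without Ho2. Other cardiomyocytes held 40.4, 48.3, 71.5 and 45.0 CPM, and here Ho1 stood alone. These cells were the shallowest of the subsets in each library, with medians of 7464 to 11258 UMIs per cell. Ho1 stood apart in their make-up too. Rspo3 was at 120, 121, 243 and 151 CPM in Wt1, Wt2, Ho1 and Ho2, and Isl1 at 124, 130, 35.7 and 125 CPM. The part of this make-up in the Bmp2 level was not tested. Whether the effects differ between these subsets was not tested.

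Counted as shares, 24.5% (exact Clopper-Pearson 95% interval 20.5 to 28.9%) of the Bmp2 UMIs of cardiomyocytes lay in Tbx2-gated cells in Wt1 and 30.3% (27.2 to 33.6%) in Wt2. The share was 45.7% (43.3 to 48.0%) in Ho1 and 46.9% (44.5 to 49.3%) in Ho2. Intervals cover counting error only and take each UMI as an independent draw. Since 1 cell can hold many Bmp2 UMIs, up to 23 in the Tbx2 gate of Ho2, these intervals are too narrow. The gate itself was a smaller part of the muscle, at 8.09% and 10.4% of cardiomyocytes in Wt1 and Wt2 and 12.9% and 13.5% in Ho1 and Ho2. A cell entered the gate with 1 Tbx2 UMI, so the share of cells also follows depth. With gates called on cells thinned to 5000 UMIs it was 5.49%, 5.27%, 6.05% and 6.09%.

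Splitting the difference exactly, over the 4 pairs of Ho and Wt libraries, gave a part due to how many of the cardiomyocyte UMIs each subset held and a part due to the Bmp2 level within it. Of the 14.3 CPM between the Ho and Wt means, Tbx2-gated cells contributed 10.4 CPM (72.6%), made of 8.01 CPM from level and 2.40 CPM from size. The contribution of the Tbx2 gate was positive in each pair, from 7.61 to 13.2 CPM. Shox2-gated cells contributed 3.90 CPM (27.2%), with a range over pairs from -1.48 to 9.27 CPM. The Myl2, Stard10 and other cardiomyocytes contributed 0.240, -0.477 and 0.259 CPM. Over all subsets level accounted for 12.5 CPM and size for 1.85 CPM. The part of the Tbx2 gate depended on how the gate was called, which was looked at after the data were seen. It was 33.0% of the difference with gates called on thinned cells and 44.6% with 1 UMI more required, against 85.1% with Tbx2 called before Shox2, and it stayed positive in each pair of libraries under these settings. On thinned cells Myl2-gated cells gave 22.7%, other cardiomyocytes 16.0%, Shox2-gated cells 14.6% and Stard10-gated cells 13.7%. With 1 UMI more the Myl2 gate gave 24.3%.

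**Figure D2:**
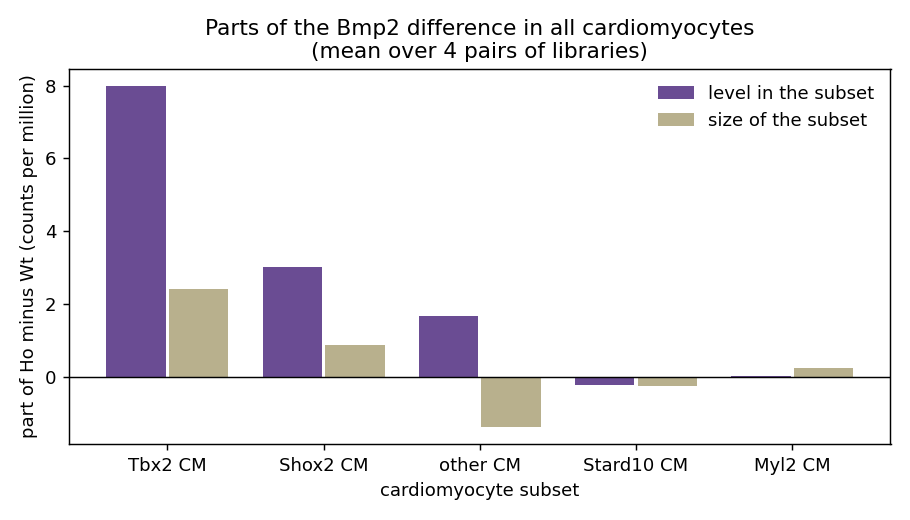
Parts of the Ho minus Wt difference of Bmp2 in all cardiomyocytes, in CPM (vertical axis), by cardiomyocyte subset (horizontal axis), as the mean over 4 pairs of libraries. Purple bars give the part from the level within the subset and tan bars the part from its size, and the tallest bar is the level part of the Tbx2 gate at 8.01, with the gates as first called.

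Within the Tbx2 gate the higher level came with more cells that held Bmp2. The level in those cells was higher in both Ho libraries too, though Ho1 lay near Wt1. A Bmp2 UMI was found in 29.8% (exact 95% interval 22.4 to 38.1%) of 141 cells in Wt1, 28.9% (23.6 to 34.6%) of 277 in Wt2, 46.6% (41.9 to 51.4%) of 446 in Ho1 and 47.9% (42.4 to 53.4%) of 332 in Ho2. In the Cdh5 gate the share was 1.89%, 1.60%, 2.01% and 3.39%. It is taken as a background on the assumption that these cells lack the gene, which was not tested. Median depths were 15959, 21035, 18303.5 and 20583.5 UMIs per Tbx2-gated cell and 13615.5 to 16911 per Cdh5-gated cell. After each cell was thinned to 5000 UMIs, which left out 7 to 9 Tbx2-gated cells per library, the shares in the Tbx2 gate were 15.0%, 16.4%, 31.4% and 30.8%, and those in the Cdh5 gate 0.457 to 0.963%. Cells with 5 or more Bmp2 UMIs made up 4.26% and 6.50% of the Tbx2 gate in Wt1 and Wt2 and 14.8% and 18.4% in Ho1 and Ho2. Scaled to depth, Tbx2-gated cells that held Bmp2 carried 2.12 (Wt1), 1.79 (Wt2), 2.34 (Ho1) and 2.84 (Ho2) of its UMIs per 10000.

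Bmp2 was higher on average in cells that also held Tbx3, which encodes a T-box repressor of the conduction system and atrioventricular canal. This split was chosen after the values were seen. Tbx2-gated cells with a Tbx3 UMI held 101 (Wt1), 105 (Wt2), 154 (Ho1) and 200 (Ho2) CPM of Bmp2, and those without held 32.9, 23.3, 50.6 and 54.1 CPM. The Ho libraries lay above the Wt libraries on both sides of the split. The same split went the same way in each library of the Shox2 gate (40.5, 45.4, 40.6 and 113 CPM with Tbx3 against 36.7 CPM or less without) and of the Myl2 gate (25.3, 19.4, 27.2 and 20.9 against 6.82, 4.93, 6.35 and 3.73). Cells with a Tbx3 UMI were 17.0% and 23.8% of the Tbx2 gate in Wt1 and Wt2 but 41.7% and 40.1% in Ho1 and Ho2. In the Cdh5 gate that share was 0.742 to 1.35%. The share follows depth, and after each cell was thinned to 5000 UMIs it was 6.77%, 8.21%, 21.4% and 15.7% in the Tbx2 gate.

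Some canal markers were higher in the Ho libraries too. In Tbx2-gated cells Tbx3 stood at 12.7, 17.8, 42.0 and 36.9 CPM in Wt1, Wt2, Ho1 and Ho2, and Msx2, a homeobox target of BMP signaling, at 30.7, 40.4, 57.8 and 55.1 CPM. Rspo3, a secreted Wnt enhancer, stood at 245, 194, 324 and 337 CPM. All of these were above Wt in both Ho libraries, whereas Tbx2 itself, the gate gene, was at 80.3, 65.2, 74.9 and 76.2 CPM and overlapped. Other BMP targets did not share one order. Msx1 was at 7.02 and 6.12 CPM in Wt1 and Wt2 against 1.30 and 4.47 CPM in Ho1 and Ho2, from 11 to 35 UMIs. Id2 (236 and 197 against 274 and 272 CPM) and Id4 (21.5 and 15.2 against 23.3 and 23.4 CPM) were higher in both Ho libraries, Id1 overlapped, and Id3 was no higher in Ho. Tbx20 was at 126 and 120 CPM in Wt1 and Wt2 against 138 and 168 CPM in Ho1 and Ho2. Nkx2-5 (43.43 and 45.45 against 56.05 and 64.91 CPM) and Gata4 (40.8 and 53.66 against 62.18 and 62.6 CPM) were higher in both Ho libraries too. Hey1, Hand1 and Atoh8 overlapped. The outflow marker Isl1 was at 36.9, 41.8, 16.6 and 32.9 CPM, lowest in Ho1. The make-up of the Tbx2 gate thus differed between libraries beside the Bmp2 level, and its part in the Bmp2 result was not tested.

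**Figure D3:**
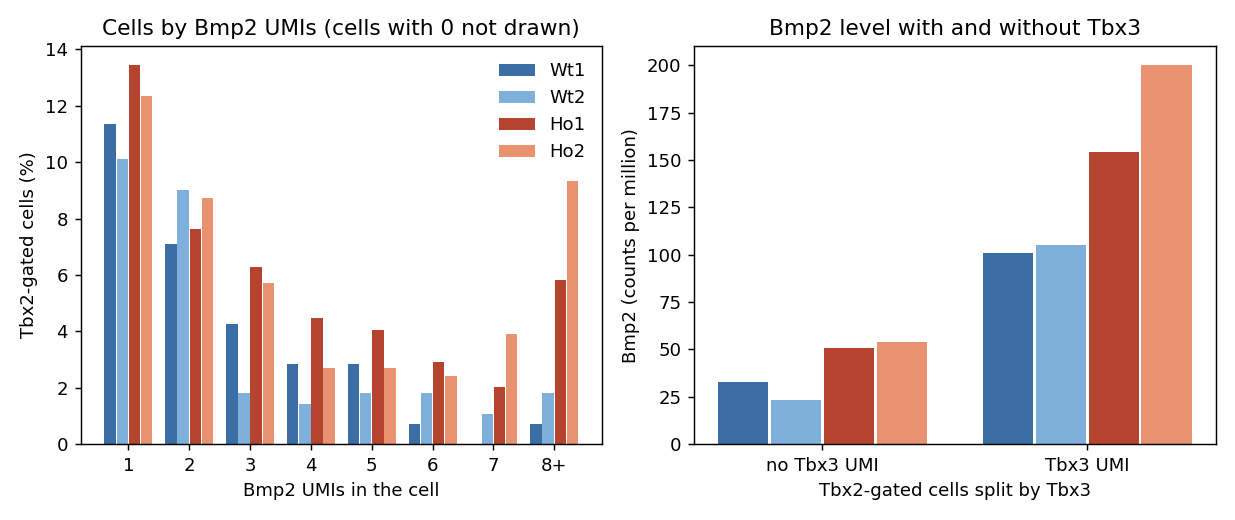
Left, Tbx2-gated cells of each library in percent (vertical axis) by the number of Bmp2 UMIs in the cell (horizontal axis, 8+ for 8 or more), without the cells at 0. Right, Bmp2 level in CPM (vertical axis) in Tbx2-gated cells without and with a Tbx3 UMI, where both Ho bars stand above both Wt bars on either side (50.6 and 54.1 against 32.9 and 23.3 without Tbx3, 154 and 200 against 101 and 105 with it).

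Among the gates other than Myl2, Stard10 and Epcam, Bmp2 ranked from Tbx2-gated cells (43.2 to 112 CPM over the 4 libraries) through other cardiomyocytes (40.4 to 71.5) and Shox2-gated cells (25.8 to 58.0), which overlap in range, to Hapln1-gated cells (12.8 to 15.3) and Upk3b-gated cells (11.4 to 13.5), which overlap too. Crabp1-gated cells ranged from 3.32 to 14.4 CPM, and Cdh5-gated cells from 1.14 to 2.42 CPM. The Epcam gate, with 6, 8 and 4 UMIs, was at 1.30 (Wt1), 5.09 (Wt2) and 1.06 CPM (Ho2) and held no cells in Ho1. The design allowed gates to be tested against each other with the library as a blocking term. Bmp2 was higher in Tbx2-gated than in Myl2-gated cells by a log2 fold change of 3.26 ± 0.13 (SE; edgeR, adjusted p = 2e-15) and in Shox2-gated cells by 2.08 ± 0.20 (adjusted p = 3.21e-07). The size of these folds includes the Ho libraries, whose Bmp2 chose the set, and Wt alone was not fitted. Since BMP2 is known for inducing Tbx2, a gate on Tbx2 may itself select cells with Bmp2. The test of the Tbx2 gate is therefore not independent of the gating, whose part was not tested. In Wt1 and Wt2 the Bmp2 levels were 45.6 and 43.2 CPM (Tbx2) and 25.8 and 29.7 CPM (Shox2) against 9.14 and 6.00 CPM (Myl2). Other cardiomyocytes held 40.4 and 48.3 CPM there, a Wt mean of 44.3 CPM beside 44.4 CPM in the Tbx2 gate. The first place of the Tbx2 gate thus rested on the Ho libraries, and it was not tested against other cardiomyocytes. Against the Myl2 gate, Stard10-gated cells were at -0.11 ± 0.16 (adjusted p = 0.642), and that value rested on single libraries. It was 0.01 without Wt1 and 0.05 without Ho1, whereas without Wt2 it was -0.43 and passed the test (adjusted p = 0.042).

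Bmp2 was also tested outside the muscle, which the choice of genes had not used. In Hapln1-gated cells, taken as cushion mesenchyme without a marker of their place in the heart, the level was 12.8 (Wt1), 13.9 (Wt2), 14.3 (Ho1) and 15.3 CPM (Ho2). Both Ho libraries were highest, but the log2 fold change was only 0.15 ± 0.14 (SE; edgeR, adjusted p = 0.954). Upk3b-gated cells held 11.4, 12.7, 11.8 and 13.5 CPM (0.10 ± 0.24, adjusted p = 0.985), and Cdh5-gated cells 1.40, 1.14, 1.18 and 2.42 CPM (0.50 ± 0.38, adjusted p = 0.927). The Cdh5 gate serves above as a background, and its value ran from -0.01 without Ho2 to 0.97 without Ho1. Whether the effects in these gates differ from that in the Tbx2 gate was not tested.

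No BMP gene passed the genotype test in the non-muscle gates. None of 7 tested was called in the Cdh5 gate, where 0.0% of 13432 genes were called by edgeR, 675 had an unadjusted p under 0.05 and DESeq2 called 21. None of 6 was called in the Hapln1 gate (0.0245% of 12267 genes) and none of 9 in the Upk3b gate (0.095% of 10521). With 25 Crabp1-gated and 0 Epcam-gated cells in Ho1, under the minimum of 50, those gates were not fitted by genotype.

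Bmp4 was highest in other cardiomyocytes and in Shox2-gated cells. This ligand gene, at chr14:46383520-46390669 on the reverse strand, is known for its part in the outflow tract and the venous pole. Its level was 259 (Wt1), 294 (Wt2), 111 (Ho1) and 252 CPM (Ho2) in other cardiomyocytes, 188, 196, 143 and 241 CPM in Shox2-gated cells and 134, 106, 60.4 and 97.8 CPM in Tbx2-gated cells. Ho1 was the lowest library in each of these subsets, and it was also lowest for the outflow list in the other cardiomyocytes, at 102 CPM against 237 to 247. That list holds Isl1 and Wnt11, and its part in the Bmp4 values was not tested.

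In contrast to Bmp2, Bmp4 was lower in both Ho than in both Wt libraries in Myl2-gated cells, at 21.5 and 22.1 against 44.3 and 30.6 CPM, and in Stard10-gated cells, at 15.0 and 16.1 against 26.2 and 20.8 CPM. That order held in the Tbx2 gate, but not in the Shox2 gate. The log2 fold changes were -0.78 ± 0.15 (Myl2), -0.55 ± 0.16 (Stard10), -0.63 ± 0.16 (Tbx2) and -0.00 ± 0.17 (Shox2; SE). Between gates, Bmp4 was above the Myl2 level in Shox2-gated cells (log2 fold change 2.55 ± 0.14, adjusted p = 5.6e-10) and in Tbx2-gated cells (1.65 ± 0.07, adjusted p = 1.34e-14). Bmp2 and Bmp4 UMIs met in 15.6%, 13.7%, 13.7% and 18.1% of Tbx2-gated cells of Wt1, Wt2, Ho1 and Ho2.

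Bmp10 was highest in Myl2-gated cells. This ligand gene (chr6:87428994-87437677, forward strand) was at 17.0, 25.9, 27.2 and 28.7 CPM in Myl2-gated cells of Wt1, Wt2, Ho1 and Ho2, with Wt1 lowest. It was lower in the Tbx2 gate (4.83 to 11.8 CPM, log2 fold change -1.72 ± 0.11, adjusted p = 1.4e-11), the Shox2 gate (-2.27 ± 0.14, adjusted p = 3.92e-09) and the Stard10 gate (-1.10 ± 0.09, adjusted p = 1.51e-09). Outside the muscle it was at 0 to 1.80 CPM in the Cdh5, Hapln1 and Upk3b gates. Other cardiomyocytes, at 3.12 to 5.53 CPM, and Shox2-gated cells, at 3.61 to 6.81 CPM, overlapped in range.

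Bmp5 and Bmp7, ligand genes at chr9:75775364-75900310 (forward strand) and chr2:172868012-172940321 (reverse strand), were found in every muscle subset. Bmp7 ranged over the 4 libraries from 54.8 to 66.3 CPM in Tbx2-gated cells and from 61.5 to 80.6 CPM in Myl2-gated cells, a log2 fold change of -0.31 ± 0.05 (adjusted p = 4.5e-05). It was at 0.334 to 1.25 CPM in the Cdh5 gate and 0.462 to 0.637 CPM in the Hapln1 gate. Bmp5 was at 14.5 (Wt1), 16.3 (Wt2), 23.6 (Ho1) and 24.2 CPM (Ho2) in Tbx2-gated cells and at 17.6, 17.0, 20.5 and 21.3 CPM in Myl2-gated cells. The Ho libraries were the higher ones in both gates, with log2 fold changes of 0.58 ± 0.17 and 0.26 ± 0.12 (SE). Between those gates Bmp5 differed by -0.03 ± 0.08 (adjusted p = 0.848).

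Bmp6, a ligand gene at chr13:38345107-38500302 (forward strand), was sparse. Its highest levels were in other cardiomyocytes, at 6.99, 7.98, 2.07 and 6.04 CPM in Wt1, Wt2, Ho1 and Ho2, with Ho1 apart from the rest, and in the Hapln1 gate at 5.40, 5.64, 5.24 and 6.50 CPM. Against all cardiomyocytes it was higher in the Hapln1 gate (log2 fold change 1.22 ± 0.20, adjusted p = 5.55e-05) and the Cdh5 gate (0.71 ± 0.18, adjusted p = 0.00381). Bmp6 was thus the ligand gene of the 6 that was higher in the 3 gates Hapln1, Cdh5 and Upk3b (0.92 ± 0.27, adjusted p = 0.00404) than in muscle, where the other 5 were lower in each of them. The Upk3b call was lost without Wt2 (adjusted p = 0.0578).

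**Figure D4:**
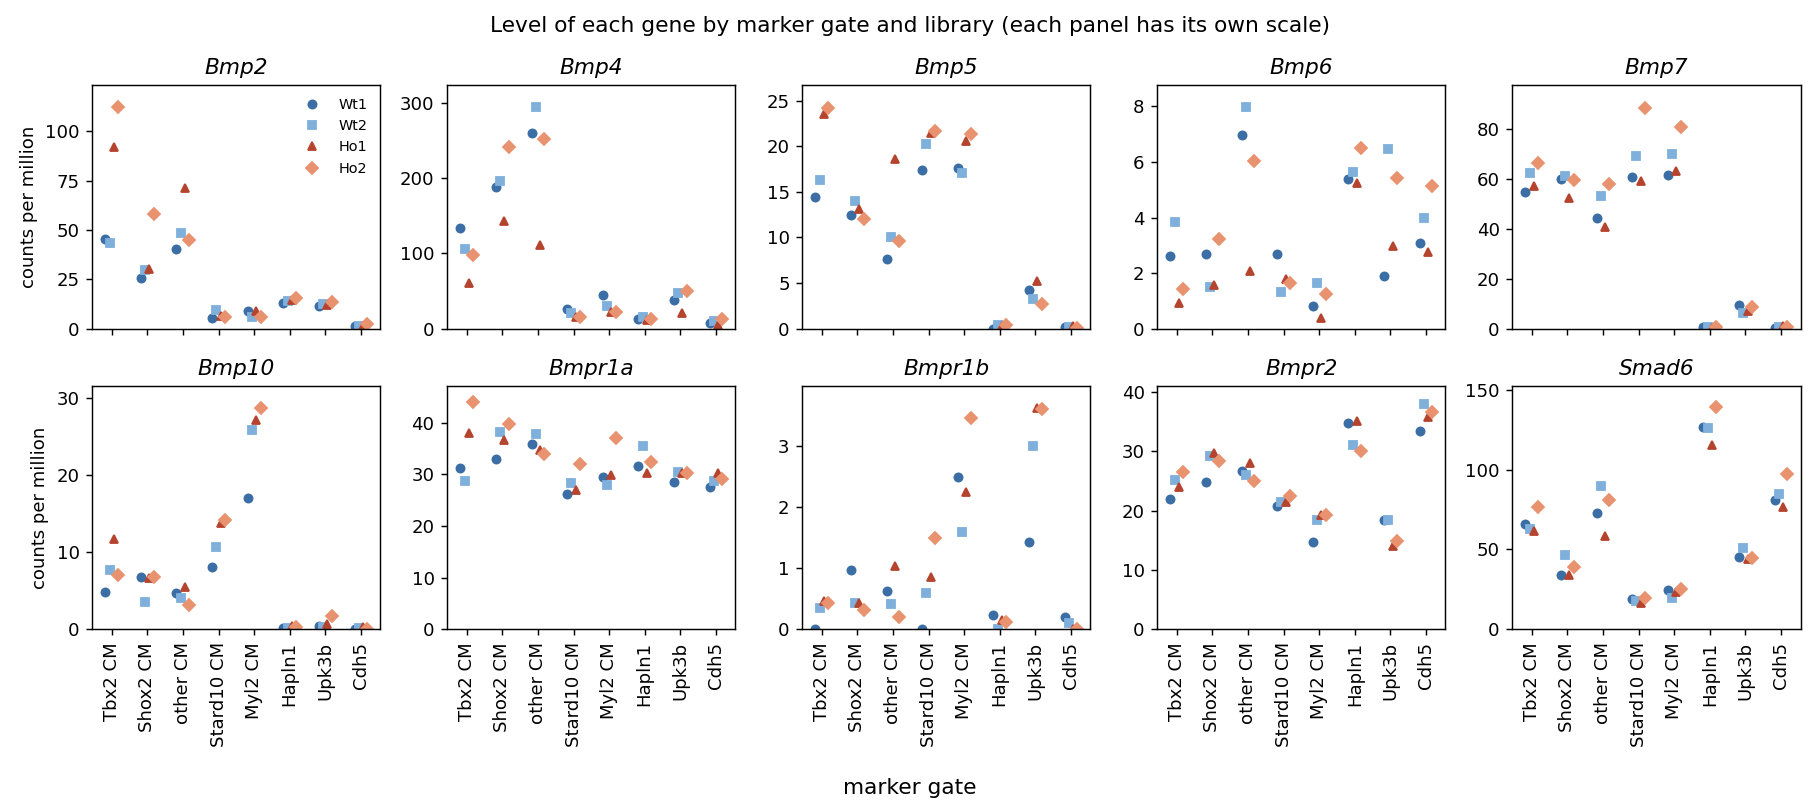
Level of each of the 10 genes in CPM (vertical axis, with a scale of its own in each panel) in 8 marker gates (horizontal axis), with 1 point for each library. Bmp2 is highest in the Tbx2 gate in Wt1, Ho1 and Ho2 but in other cardiomyocytes in Wt2 (48.3 against 43.2), Bmp10 is highest in the Myl2 gate (17.0 to 28.7) and Smad6 in the Hapln1 gate (116 to 139), while Bmpr1a runs nearly level across gates.

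Of the receptor genes, Bmpr1a and Bmpr2 were counted in both muscle and endothelium, while Bmpr1b was sparse. Bmpr1a (chr14:34410734-34503341, reverse strand), which encodes the type I receptor ALK3, was at 30.7, 30.3, 31.8 and 37.6 CPM in cardiomyocytes of Wt1, Wt2, Ho1 and Ho2 and at 27.6 to 30.3 CPM in the Cdh5 gate, a log2 fold change of -0.34 ± 0.05 (adjusted p = 9.05e-05). Fitted folds include the TMM scaling of the sums, which the CPM do not, and the mean CPM of Bmpr1a were 32.6 in cardiomyocytes and 28.9 in the Cdh5 gate. Bmpr1a did not pass the test between Tbx2-gated and Myl2-gated cells (0.10 ± 0.07, adjusted p = 0.252). Within Tbx2-gated cells it was at 31.2, 28.7, 38.0 and 44.0 CPM, higher in both Ho libraries, with a log2 fold change of 0.44 ± 0.14 (SE). Bmpr2 (chr1:59763400-59879014, forward strand), the type II receptor gene, was higher in the Cdh5 gate (33.5 to 38.0 CPM) than in cardiomyocytes (20.5 to 23.6 CPM), by 0.53 ± 0.05 (adjusted p = 5.24e-07). It was lower in the Upk3b gate by a log2 fold change of -0.60 ± 0.11 (adjusted p = 4.32e-05).

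Bmpr1b (chr3:141837136-142169425, reverse strand), for the type I receptor ALK6, was near the limit of detection. Myl2-gated cells held 2.49, 1.59, 2.24 and 3.45 CPM in Wt1, Wt2, Ho1 and Ho2 and Tbx2-gated cells 0, 0.350, 0.471 and 0.433 CPM, a fitted log2 fold change of -2.76 ± 0.37 (adjusted p = 1.91e-06). The Tbx2 values rest on 0, 2, 4 and 3 UMIs, so the size of that fold is loose. In Upk3b-gated cells Bmpr1b was at 1.42 to 3.62 CPM and above the level of all cardiomyocytes (1.08 ± 0.29, adjusted p = 0.00231).

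Smad6 (chr9:63953076-64022059, reverse strand), whose product blocks BMP receptors and their SMADs and which BMP signaling itself induces, served as a readout gene. The start of the gene is shown because it holds a palindrome of the letters GTCTAGAC, a sequence that SMAD proteins are known to bind. The stretch reads in the direction of transcription, from 100 bases before the start to base 10 of the transcript, at chr9:64022050-64022159 (reverse strand, GRCm38.p6, RefSeq), with the palindrome in capitals.
Smad6 start: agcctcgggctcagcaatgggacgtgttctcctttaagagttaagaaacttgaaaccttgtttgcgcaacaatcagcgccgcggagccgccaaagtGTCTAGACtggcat
The palindrome lies 4 bases before and 4 bases after the start, and reads alike on both strands. It is present in 18 of 32851 RefSeq start windows of the same 110 bases (0.0548%) and in 1 of the 8 BMP genes that have such a window, which is a match of letters and no evidence of binding.

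Smad6 was at 127 (Wt1), 126 (Wt2), 116 (Ho1) and 139 CPM (Ho2) in the Hapln1 gate, at 81.0, 84.5, 76.4 and 97.5 CPM in the Cdh5 gate and at 37.3, 36.1, 32.7 and 42.0 CPM in all cardiomyocytes. Genotypes overlapped in each of them. Both gates were above cardiomyocytes, by 1.50 ± 0.04 (adjusted p = 1.02e-13) and 1.03 ± 0.04 (adjusted p = 4.4e-10) on the log2 scale. In the muscle it was higher in Tbx2-gated cells, at 66.2, 63.1, 61.8 and 76.7 CPM, than in Myl2-gated cells, at 24.9, 19.6, 23.5 and 25.1 CPM, with a log2 fold change of 1.42 ± 0.06 (adjusted p = 1.46e-14). Although Bmp2 was higher in the Tbx2-gated cells of both Ho libraries, Smad6 there overlapped between the genotypes (0.07 ± 0.12, SE).

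The wider pathway was followed in 60 further genes, listed with earlier results of these data known. Of 40 that could be tested between Tbx2-gated and Myl2-gated cells, 26 were higher, 2 lower and 12 not called, with a median log2 fold change of 0.47 against 0.01 over all genes tested. Of the 10 BMP genes above, 8 were called in this comparison, where 37.2% of 11677 genes were. One of the 26 is Tbx2, which set the gate. Genes linked to Tbx2, among them other BMP targets, may be selected with it. The folds and p-values between these gates are therefore not independent of the gating.

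Smad7, the second inhibitory SMAD, was at 90.4, 84.8, 89.6 and 100.2 CPM in the Tbx2 gate of Wt1, Wt2, Ho1 and Ho2 against 33.1 to 45.1 CPM in the Myl2 gate, a log2 fold change of 1.08 ± 0.06 (adjusted p = 7.2e-13). All 4 Id genes, which encode inhibitors of basic helix-loop-helix factors, were higher, by log2 fold changes of 0.83 (Id1), 0.71 (Id2), 1.29 (Id3) and 2.13 (Id4), each with an SE of 0.11 or less. Id3 was at 461, 345, 344 and 344 CPM against 113 to 185 CPM. Msx2 (1.97 ± 0.09, adjusted p = 4.71e-14), Tbx3 (1.86 ± 0.12, adjusted p = 8.4e-12) and Smad9 (1.44 ± 0.18, adjusted p = 4.97e-07) were higher too.

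Bambi, a pseudoreceptor that dampens BMP and TGF-beta signals, was at 522, 637, 650 and 701 CPM in Tbx2-gated cells against 322 to 360 CPM in Myl2-gated cells (0.77 ± 0.05, adjusted p = 8.62e-12). The antagonist Fst was higher by 2.17 ± 0.19 (adjusted p = 1.73e-09), with 1.52 to 2.03 CPM in the Myl2 gate, whereas Nog, for the antagonist noggin, did not pass (-0.02, adjusted p = 0.935). The 2 lower genes were Pcsk6, a convertase (-0.79 ± 0.13, adjusted p = 1.92e-05), and Gdf11, a ligand of the activin branch (-0.35 ± 0.10, adjusted p = 0.0104).

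**Figure D5:**
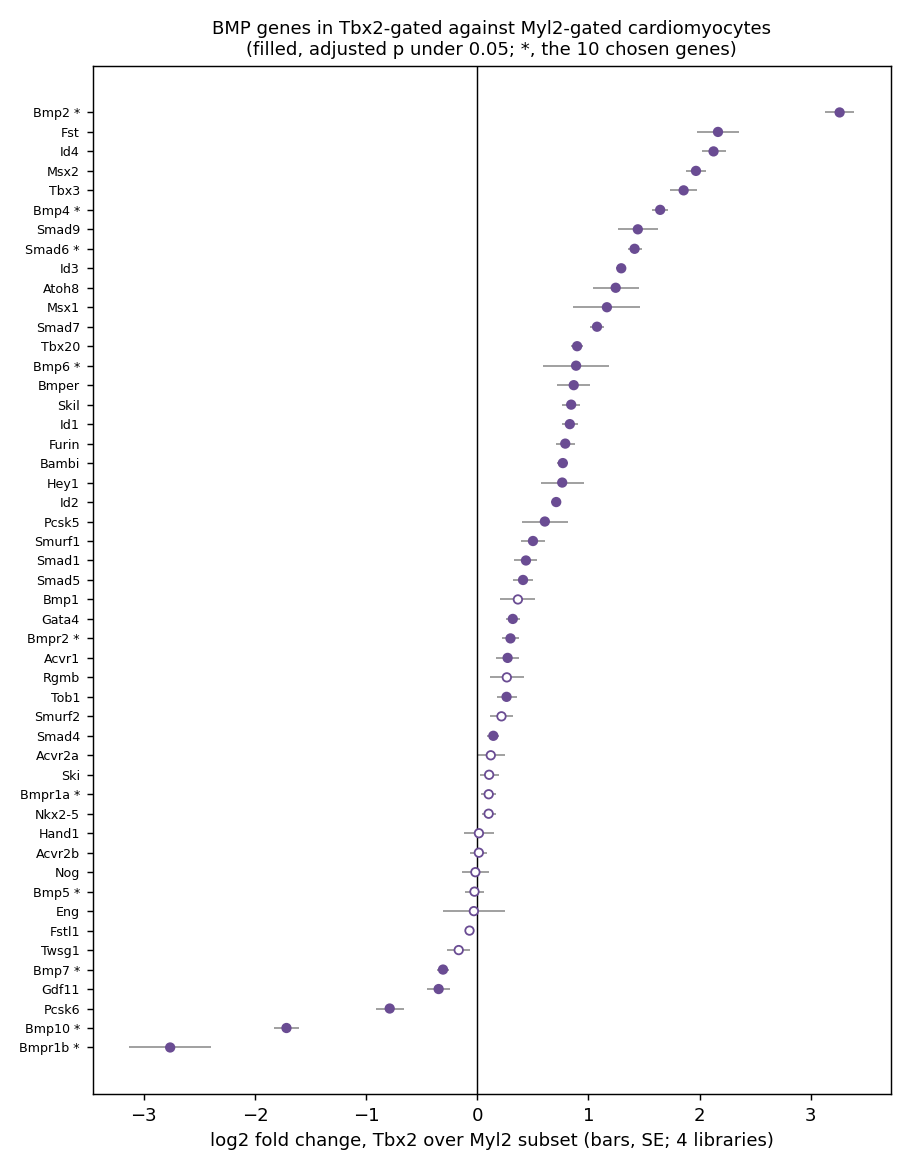
Log2 fold change of Tbx2-gated over Myl2-gated cardiomyocytes (horizontal axis, with SE bars, 4 libraries) for the BMP genes tested (vertical axis, ordered by value, the 10 genes of the set starred and Tbx2 left out). Filled points passed an adjusted p of 0.05, and genes linked to Tbx2 may be selected with the gate. Bmp2 is uppermost at 3.26, followed by Fst, Id4, Msx2, Tbx3 and Bmp4, and Bmpr1b and Bmp10 lie at the bottom. The top rank includes the Ho libraries, whose Bmp2 chose the set, and Wt alone was not fitted. By the CPM of the gates, Fst had the larger ratio of Tbx2 to Myl2 in Wt1 and Bmp2 in Wt2.

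Against Myl2-gated cells 25 of 41 genes were higher and 7 lower in the Shox2 gate, and 14 of 39 were higher and 11 lower in the Stard10 gate. Of the 10 BMP genes 9 were called in the Shox2 gate, where 55.9% of all genes were, and 5 in the Stard10 gate, where 36.6% were. Of those 5, Bmpr2 (0.21 ± 0.08, adjusted p = 0.0435) was lost whichever library was left out (adjusted p = 0.0853 to 0.122), without the filter on low counts (adjusted p = 0.136) and with cells of at least 2000 UMIs (adjusted p = 0.0541). On thinned gates the calls of Smad6 (adjusted p = 0.244) and Bmp4 (adjusted p = 0.341) were lost as well. In the Shox2 gate Smad6 was lost on thinned gates (adjusted p = 0.143). Bmp6 was lost there without Wt1, Ho1 or Ho2 (adjusted p = 0.0645, 0.101 and 0.12), in the Tbx2 gate without Wt1 or Ho1 (adjusted p = 0.0578 and 0.0594) and in the Crabp1 gate without Wt1 or Ho2 (adjusted p = 0.295 and 0.0666).

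Outside the muscle the share of all genes that differed from cardiomyocytes was large in some gates and smaller in others. All 10 BMP genes were called in the Cdh5 gate (80.4% of all genes) and in the Hapln1 gate (76.4%), 9 in the Upk3b gate (66.7%) and 5 in the Crabp1 gate (44.0%). The Bmpr1a call in the Hapln1 gate (-0.28 ± 0.07, adjusted p = 0.00133) came after TMM scaling, with mean CPM of 32.4 against 32.6 in cardiomyocytes. The Bmpr1a call in the Upk3b gate was lost without Ho2 (log2 fold change -0.22, adjusted p = 0.0575). Eng, the co-receptor of the endothelium, was at 181 to 207 CPM in the Cdh5 gate against 1.15 to 3.23 CPM in cardiomyocytes. The Hapln1 gate was higher for Id3 (2.28 ± 0.07, adjusted p = 7.31e-13), Id1 (1.04 ± 0.07, adjusted p = 5.97e-09) and Smad7 (0.76 ± 0.05, adjusted p = 1.82e-09) and for Bmper, which encodes a secreted BMP binder (2.13 ± 0.09, adjusted p = 1.9e-11). The Msx genes went opposite ways there, with Msx1 higher, at 124 to 190 CPM against 1.63 to 4.75 CPM in cardiomyocytes (5.42 ± 0.15, adjusted p = 1.79e-13), and Msx2 lower (-1.16 ± 0.08, adjusted p = 5.02e-09).

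Between the genotypes the list yielded 1 call of 41 tested in the Tbx2 gate (0.302% of all genes), which was Tbx3 (log2 fold change 1.27 ± 0.17, SE), again in the contrast that chose the set, so nothing is read from it. In the Cdh5 gate 0 of 43 were called (0.0% of all genes) and in the Hapln1 gate 0 of 41 (0.0245%). The Upk3b gate gave 1 of 35 (0.095% of all genes), Hand1, a helix-loop-helix factor of the outer heart and outflow tract. Its 36 and 106 UMIs (17.1 and 26.4 CPM) in Wt1 and Wt2 fell to 2 and 28 (0.658 and 6.32 CPM) in Ho1 and Ho2, a log2 fold change of -2.48 ± 0.43 (edgeR, adjusted p = 0.0441). The call was lost with DESeq2 (adjusted p = 1.00), with doublets kept (adjusted p = 0.221), with a Tnnt2 minimum of 15 (adjusted p = 0.160) or 3.75 per 10000 (adjusted p = 0.0583) and with RLE scaling (adjusted p = 0.0568), at log2 fold changes of -2.27 to -2.60. It was kept with the replicate block (adjusted p = 0.0020), without the filter on low counts, with cells of at least 2000 UMIs (adjusted p = 0.0403) and with each library left out. The log2 fold change was -1.83 without Ho1 and -4.95 without Ho2.

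The genes whose levels ran most like those of Bmp2 were sought among 15478 genes over 38 sums of gate and library, by Pearson's r of log2(CPM + 1). These sums share libraries and depth, so r is a description with no p. The nearest were Gsn (r = 0.899), Plekha6 (0.893), Ptpn11 (0.870), Bambi (0.856), Tm2d1 (0.852), Kif5b (0.840), Sat2 (0.831), Smim14 (0.823), Pde3a (0.822) and Oprk1 (0.820). Gsn, for the actin-severing protein gelsolin, averaged 35.8 CPM in Tbx2-gated and 16.9 CPM in Myl2-gated cells, and Plekha6 19.4 and 8.90 CPM. Rspo3 ranked 19 (r = 0.796), and the nearest of the set was Bmp4 at rank 317 (0.641), while Bmpr1b had the lowest r (-0.263).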

How the data were processed

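Hearts of E10.5 embryos were profiled in 2 Wt and 2 Ho libraries. The authors counted UMIs with Cell Ranger 6.1.1 on mm10 (GRCm38) and deposited raw counts of called cells, and Seurat 4.1.0 is named in the submitters' processing notes. From the deposited counts, barcodes with 500 to 50000 UMIs, 500 to 6000 genes and at most 20% mitochondrial UMIs were kept, and the highest Scrublet scores (scanpy 1.11.5) were removed at 0.8% per 1000 cells, 334 to 746 per library, in place of the authors' doublet caller. Cells were gated by marker minima taken from the marker's own distribution. Cdh5 needed 2 UMIs, Upk3b 3, Epcam 3, Shox2 2 and Tbx2 1, and Hapln1 4, Crabp1 4, Stard10 2 and Myl2 8 per 10000. Tnnt2-high cells with a Cdh5 or Epcam call (7 to 78 per library) entered no gate, and 650 to 3050 cells passed no minimum.

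Sums were compared with edgeR 4.0.16 in R 4.3.3 (quasi-likelihood, TMM, its filter on low counts, Benjamini-Hochberg at 0.05), genotypes without covariates and gates with the library as a block. In simulated data where 200 genes were shifted by 1 on the log2 scale, 147 were recovered between genotypes in the Cdh5 gate (13432 genes, 6 false calls) and 193 between the Tbx2 and Myl2 gates (11677 genes, 9 false calls). RLE scaling, no filter, DESeq2 1.42.0, a replicate block, other gate minima, doublets, depth and leaving out each library were tried. Named were the 10 genes, the called genes of a 60-gene pathway list (a selection of them) and the 10 genes most like Bmp2. The genes, lists and markers were chosen with earlier results of these data known. Positions are from GENCODE M21 (GRCm38), where all 10 genes were found, and start windows from RefSeq (GRCm38.p6), which held 8 of the 10. Replicate numbers are not said to mark a litter or day.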

Additional observations from a re-analysis of the deposited data

Results flagged for a closer look

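In 2 receptor genes the Ho libraries were the higher pair in some gates and the lower pair in another, and the difference between the gates was not tested. For Bmpr1a the log2 ratio of the mean CPM of Ho to that of Wt was 0.22 in Myl2-gated cells, 0.46 in Tbx2-gated cells and 0.08 in Cdh5-gated cells, against -0.10 in other cardiomyocytes. For Bmpr2 it was 0.22 in Myl2-gated and 0.06 in Stard10-gated cells, against -0.35 in Upk3b-gated cells. In cells outside the gates, which enter no comparison, Bmp7 stood at 10.3 CPM in Ho1 and 8.41 CPM in Ho2 against 4.44 and 4.81 CPM in Wt1 and Wt2. Bmp10 in the same cells was at 4.11 CPM in Ho1 and 0.504 CPM in Ho2 against 0.144 and 0.122 CPM. These cells include Tnnt2-high cells with a Cdh5 or Epcam call, which held 14.2% of their UMIs in Ho1 and 0.404 to 1.77% in the other libraries. Without them Bmp7 was at 3.91 CPM in Ho1 and 8.29 CPM in Ho2 against 3.83 and 4.27 CPM in Wt1 and Wt2, so that the genotypes overlapped, and Bmp10 at 1.77 and 0.506 CPM (14 and 10 UMIs) against 0.0365 and 0.124 CPM (1 and 2 UMIs).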

How the results depend on the processing

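The log2 fold change of Bmp2 between genotypes kept its direction under each alternative tried in all cardiomyocytes and in Tbx2-gated cells, at 0.63 to 0.92 and 1.08 to 1.28 when each library was left out, a setting in which the lone library of a genotype is assumed to vary like the others. Numbers of genes called by genotype did not hold. Over the libraries left out they ran from 1 to 127 in all cardiomyocytes, 63 to 149 in the Tbx2 gate, 2 to 350 in Shox2, 26 to 53 in Stard10, 8 to 188 in Myl2, 0 to 143 in Cdh5, 2 to 156 in Hapln1 and 13 to 111 in Upk3b. Without the filter on low counts they were 219 (all cardiomyocytes), 165 (Tbx2), 132 (Shox2), 68 (Stard10), 140 (Myl2), 231 (Cdh5), 143 (Hapln1) and 123 (Upk3b). DESeq2 gave 21 (all cardiomyocytes), 17 (Tbx2), 5 (Stard10), 21 (Cdh5) and 14 (Hapln1). Replicate numbers did not pair the libraries (correlation of deviations of Wt1 with Ho1 -0.0592 in cardiomyocytes, -0.165 in Cdh5-gated and -0.00414 in Hapln1-gated cells). With a replicate block 21 (all cardiomyocytes), 76 (Tbx2), 59 (Shox2), 81 (Stard10), 146 (Myl2), 20 (Hapln1) and 24 (Upk3b) genes were called, and Bmp2 was at 0.77 in all cardiomyocytes and 1.18 in the Tbx2 gate. With the replicate numbers crossed, which was chosen after seeing the data, the block called 15, 7 (Shox2), 17 (Stard10), 76 (Myl2), 23 (Cdh5), 36 (Hapln1) and 33 (Upk3b). A Tnnt2 minimum of 3.75 per 10000 gave 1 (Shox2) and 6 (Hapln1), one of 15 per 10000 gave 22 (Tbx2), 1 (Shox2), 22 (Myl2) and 5 (Hapln1), and keeping doublets gave 0 (Shox2) and 16 (Stard10). RLE scaling gave 23 (Stard10), cells of at least 2000 UMIs 25 (Myl2), and gates on cells thinned to 5000 UMIs 15 (Tbx2), 0 (Myl2), 5 (Hapln1) and 1 (Upk3b). The causes were not tested.

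The share of Bmp2 UMIs in the Tbx2 gate moved with the gate. With 1 UMI more required it was 10.6%, 13.1%, 21.2% and 28.9% in Wt1, Wt2, Ho1 and Ho2, on thinned cells 12.4%, 17.4%, 20.6% and 23.6%, and with Tbx2 called before Shox2 33.8% (Wt2), 48.2% (Ho1) and 56.2% (Ho2). Both Ho libraries stayed above both Wt libraries in each. On thinned gates the Bmp2 log2 fold change became 0.78 in the Myl2 and 0.89 in the Stard10 gate. With the gates as first called, the Stard10 value of -0.33 became 0.19 without Wt2. These values turned sign on thinned gates, Bmp2 by genotype in Hapln1 (-0.06) and, against Myl2, Bmpr1a in Shox2 (-0.01), Bmp2 (0.12), Bmp4 (0.10) and Bmp5 (-0.07) in Stard10 and Bmp5 in Tbx2 (0.05). Only that Bmp4 value had been called on the full gates (-0.60). Leaving out each library gave ranges across 0 for Bmp2 in Stard10 (-0.43 to 0.05), Bmp5 in Tbx2 (-0.08 to 0.01), Bmpr1a in Shox2 (-0.01 to 0.11) and, against cardiomyocytes, Bmpr1a (-0.28 to 0.01) and Bmpr1b (-0.20 to 0.81) in Crabp1, and for Bmp2 by genotype in Cdh5 (-0.01 to 0.97).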
